A study of Mus musculus with 4 samples.

Results

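Non-neural lineage marker miRNAs are mature miRNAs that mark epithelia, sensory cells, blood, endoderm, and muscle or vessels, and their detection bears on which other cells the neural cultures could hold. They were taken by name: 31 base names in 5 lineages, with every strand of each that the array carries. This gave 42 members of the 611 mouse miRNAs on the array, namely 12 epithelial, 4 sensory, 7 blood, 7 endodermal and 12 muscle or vessel miRNAs, and 9 of the 42 are star strands, the less abundant arm of a precursor. By the detection rule given below, the primary arrays detected 3 each of the 42 (7.14%) and the secondary arrays 0 each. Of all mouse miRNAs the arrays detected 30.4% to 36.0%. The count depends on the rule: the scanner software's own flag gave 3 and 5 members on the primary and 2 and 1 on the secondary arrays. The members detected by the rule were miR-96 and miR-183 of the sensory list, miR-155 of the blood list and miR-375 of the endoderm list, all 4 on primary neurospheres.

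The samples were neural stem and progenitor cells (NSPCs) derived from mouse embryonic stem cells (ESCs) through embryoid bodies and grown as neurospheres. Wild-type (WT) cells and a line overexpressing (OE) the transcription factor NFIA had been grown together in mixed spheres and were sorted apart by fluorescence. Primary neurospheres (passage 0) were taken on day 6 and secondary neurospheres (passage 1) on day 12, and each sorted fraction was hybridised to 1 single-colour Agilent array, so that the 4 groups hold 1 array each. The promoter that drives NFIA, the number of clones and the mouse strain are not given in the sources used here. In both passages the sample titled control has a source name that gives the NFIA OE line, and the sample titled NFIA OE one that gives WT. The arrays are called by their titles, PNs_CT, PNs_NFIA_OE, SNs_CT and SNs_NFIA_OE (P for primary, S for secondary, CT for control), and lists of 4 values keep that order. Groups follow the titles, and every title difference turns its sign if the source names are right. NFIA is not a miRNA, so that these arrays check neither label.

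miRNAs are cut from hairpin precursors and guide repression of messenger RNAs that pair with their seed, bases 2 to 8 from the 5′ end. Several are enriched in a lineage and are used as its markers, which does not mean that they are absent from other cells. The miR-200 family and miR-203 and miR-205 mark epithelia, where the miR-200 family represses the transcription factors Zeb1 and Zeb2. The miR-183 cluster (miR-183, miR-96 and miR-182) marks sensory cells such as hair cells and photoreceptors. Blood cells are marked by miR-142, miR-144, miR-451 and miR-150, hepatocytes by miR-122, and endocrine cells such as those of the pancreatic islet by miR-375. Striated muscle is marked by miR-1, miR-133 and miR-206, smooth muscle by miR-143 and miR-145, and endothelium by miR-126.

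The sequences below show the sensory cluster and the miR-200 family, as the groups of related members that hold miR-96, miR-183 and miR-200b, and the detected miR-155. They are RefSeq mature sequences of the GRCm38.p6 assembly, written 5′ to 3′ with the seed in capitals. Older names on the array were read as current strand names by hand, and 32 of the 42 members were then matched by name to that table.
miR-96: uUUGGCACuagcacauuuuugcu
miR-183: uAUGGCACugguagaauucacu
miR-182: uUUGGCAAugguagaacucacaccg
miR-200b: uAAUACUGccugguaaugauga
miR-200c: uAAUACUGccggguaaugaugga
miR-429: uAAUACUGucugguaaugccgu
miR-200a: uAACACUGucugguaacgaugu
miR-141: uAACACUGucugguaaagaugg
miR-155: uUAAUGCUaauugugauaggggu
In the sensory cluster the seeds of miR-96 and miR-183 match at 6 of 7 bases, as do those of miR-96 and miR-182, and no seed is shared. In the miR-200 family the seed AAUACUG is shared by miR-200b, miR-200c and miR-429, and AACACUG by miR-200a and miR-141. Counted from the 5′ end, miR-200b and miR-200c match at 20 of 22 bases, and so do miR-200a and miR-141. Whether the probes of such close relatives bind one another's miRNA was not tested, and the family's values are not taken as independent.

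In GRCm38.p6 the hairpins of the sensory cluster lie on the minus strand of chromosome 6 inside the long non-coding RNA gene Mirc35hg, Mir96 at chr6:30169446-30169551, Mir183 at chr6:30169668-30169737 and Mir182 at chr6:30165918-30165992. The miR-200 family has 2 sites. Mir200b (chr4:156055681-156055750), Mir200a (chr4:156054896-156054985) and Mir429 (chr4:156053905-156053987) lie on the minus strand of chromosome 4 within the span of the non-coding gene Gm13648. Mir200c (chr6:124718322-124718390) and Mir141 (chr6:124717914-124717985) lie on chromosome 6 within no other gene of the table. Mir155 (chr16:84714140-84714204) lies within Mir155hg.

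Detection was read on each array by itself. The scanner software marks each spot as well above background or not; a probe with 50% or more of its spots so marked was taken as detected, and 1 such probe was enough for its miRNA. By this rule PNs_CT detected 186 mouse miRNAs (30.4%), PNs_NFIA_OE 220 (36.0%), SNs_CT 209 (34.2%) and SNs_NFIA_OE 207 (33.9%). Of the 42 members the shares were 7.14%, 7.14%, 0% and 0%. At least 1 array detected 4 of the 42 members, against 41.2% of all mouse miRNAs. The arrays differed in brightness: the 75th percentile over commonly detected probes was 167, 261, 443 and 369 intensity units, so both primary arrays were dimmer than both secondary ones. Negative-control spots had a median of 2.92 to 3.72 units and a 99th percentile of 11.8 to 12.4, and the dimmest detected probe of an array stood at 16.6 to 21.9 units.

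**Figure D1:**
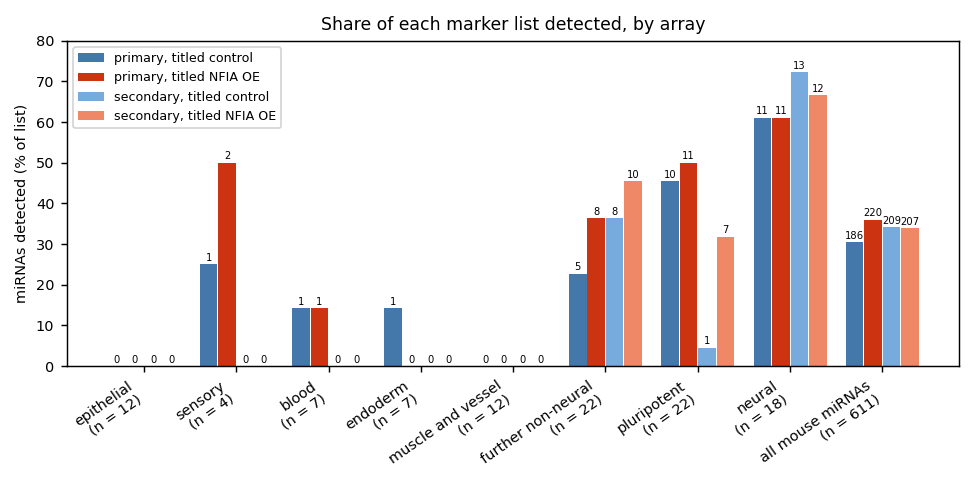
Share of each marker list detected on each array (bars, in percent, with the number of miRNAs above each bar). The epithelial and the muscle and vessel bars are at 0 on all 4 arrays, while 11 to 13 of 18 neural miRNAs were detected.

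The cells' own labels can be set against markers in the same way. Of 18 strands on the neural list 11, 11, 13 and 12 were detected. miR-9, abundant in neural progenitors, and miR-124, a neuronal miRNA, were detected on every array, but differed in their order. miR-9 had 204, 289, 2222 and 1305 intensity units, higher on both secondary arrays. miR-124 had 147, 107, 132 and 64.0 units, lowest on SNs_NFIA_OE, where 7 of its 17 spots were well above background. Of 22 strands of the pluripotency-linked miR-290 and miR-302 clusters 10, 11, 1 and 7 were detected. The cultures thus carried neural miRNAs at both passages, and more pluripotency-linked miRNAs were detected on the primary arrays.

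The sensory list held miR-96, the only member detected by both of its probes on an array. miR-96, which is needed for hair-cell maturation, had a mean processed intensity of 14.8 (SE over spots 1.4) on PNs_CT, 40.8 (SE 1.65) on PNs_NFIA_OE, 2.57 (SE 0.68) on SNs_CT and 3.44 (SE 0.72) on SNs_NFIA_OE. Both primary arrays were above both secondary ones, and PNs_NFIA_OE was highest. These errors are technical, since they come from repeated spots of 1 array, and no group has a replicate. On PNs_NFIA_OE all 18 spots kept for miR-96 were well above background on its 2 probes. On PNs_CT 5 of 10 spots of 1 probe were, exactly at the limit of the rule, and 0 of the other probe's spots. On the secondary arrays 0 of 20 and 0 of 19 spots were.

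miR-183 followed the same order on the primary arrays. Its intensity was 6.03 (SE 0.92), 22.0 (SE 1.64), -0.63 (SE 0.53) and -0.11 (SE 0.90) on the 4 arrays. Only PNs_NFIA_OE detected it, with 11 of 20 spots well above background, 9 of 10 on 1 probe. Both secondary values were below the negative-control median. The other members of the list, miR-182 of the same cluster and the star strand of miR-183, were not well above background on any array. miR-182 had values of -0.47, -0.91, -1.71 and -2.11 units, all below 0, but its 2 probes disagree. On PNs_NFIA_OE 1 probe read 4.40 (SE 0.89), its highest array, and the other -5.16 (SE 1.1), its lowest. A probe's brightness depends on its own binding, so the data do not rank miR-182 below miR-96.

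**Figure D2:**
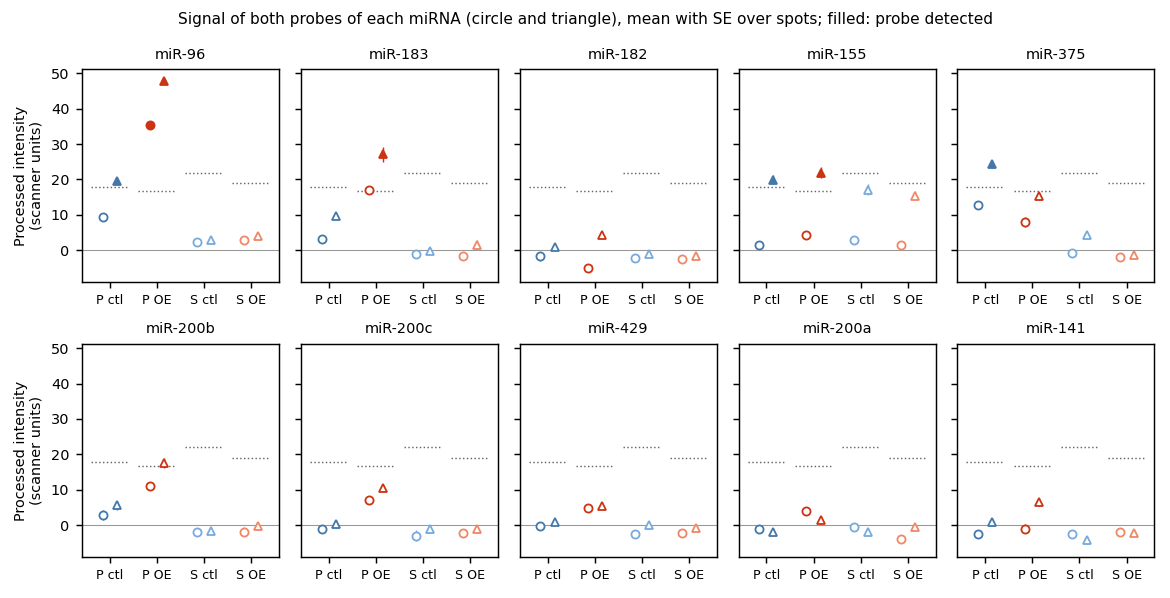
Processed intensity of both probes (circle and triangle) of 10 miRNAs on the primary (P) and secondary (S) arrays titled control (ctl) and NFIA OE (OE), as mean with SE over spots. Filled symbols are detected probes and dotted lines mark the dimmest detected probe of each array. miR-96 has a filled symbol on both primary arrays, and each miR-200 family probe has its own highest point on PNs_NFIA_OE.

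No epithelial miRNA was detected on any array (0 of 12) by the rule above. Below the detection limit the 5 guide strands of the miR-200 family shared the array on which each was highest, but not the order of the other arrays. miR-200b had 4.16 (SE 0.96), 14.3 (SE 1.15), -1.78 (SE 0.65) and -1.04 (SE 0.81) intensity units on the 4 arrays. On PNs_NFIA_OE 3 of its 20 spots were well above background, all 3 on 1 probe, short of the rule. Its mean there was above the 99th percentile of the negative controls (12.0), and 4 of the 5 other detection measures tried, all but that asking for every spot, called it detected on that array. miR-200c had -0.35, 8.69, -2.08 and -1.66 units. miR-429 had 0.36, 5.2, -1.28 and -1.55 units.

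miR-200a had -1.63, 2.70, -1.22 and -2.08 units. miR-141 had -0.82, 3.11, -3.29 and -2.03 units, but its probes disagree on PNs_NFIA_OE, at 6.44 (SE 0.98) and -1.06 (SE 1.26). All 5 family members were thus highest on PNs_NFIA_OE, by 10 of 10 probes, where 23.1% of all 1759 mouse probes had their highest intensity on that array. After each array was divided by its 75th percentile, the counts were 10 of 10 and 22.6%. The probes share closely related targets, and these values were looked at with the family's order known, so that the count is a description of 1 array. Of the other epithelial markers, miR-203 ran from -0.20 to 1.42 units and miR-205 from -3.46 to -1.34.

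In the blood list only miR-155, a miRNA induced in activated lymphocytes and macrophages, was detected. Its intensity was 10.7 (SE 2.2), 13.6 (SE 2.2), 10.3 (SE 1.9) and 8.5 (SE 1.8) units on the 4 arrays. The 4 means spanned 8.5 to 13.6 units, and detection on the primary arrays alone came from 7 of 10 spots well above background on 1 probe, against 2 of 10 on each secondary array. That probe read 19.9, 21.9, 17.1 and 15.4 units. Its second probe read 1.54, 4.26, 2.82 and 1.56 units with 0 spots well above background, so the 2 probes of miR-155 disagree.

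The markers that define blood cells were not well above background on any array. miR-142-3p, present throughout the haematopoietic lineage, had 1.2, 0.018, 0.97 and -0.92 units. miR-451, a miRNA of red cells, had -0.45, -0.33, 0.30 and -0.50 units. The 6 blood strands other than miR-155 had 0 of 471 spots well above background, and 24 of their 24 array values were below the negative-control median.

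In the endoderm list miR-375 had 18.8 (SE 1.5), 11.6 (SE 1.2), 1.69 (SE 0.68) and -1.59 (SE 0.52) units on the 4 arrays. In intensity it was the only one of the 4 detected members to be highest on PNs_CT, while as percent of each array's 75th percentile miR-155 was too, at 6.42 against 5.19, 2.33 and 2.31. That array detected it, with 10 of 10 spots of 1 probe well above background and 0 of the 9 spots kept for the other. PNs_NFIA_OE had 0 of 20 spots well above background, although its mean was above both secondary arrays.

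miR-192, which marks liver, gut and kidney epithelium, was not detected by the rule. On SNs_CT the scanner software's flag, the 99th percentile of the negative controls and the authors' values did count it as detected. In intensity it was higher on both secondary arrays than on both primary ones, with 4.66, 7.61, 13.8 and 10.8 units. As percent of each array's 75th percentile it stood at 2.78, 2.91, 3.12 and 2.92, so that its order by passage was that of the arrays' brightness. miR-194, encoded beside miR-192, had -0.64, 0.65, 3.93 and 0.69 units. The liver marker miR-122 ran from -1.76 to -1.04 units, and miR-216a, miR-216b and miR-217, miRNAs of the exocrine pancreas, ran from -4.89 to -1.64, all below 0.

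No muscle or vessel miRNA was detected on any array (0 of 12) by the rule above. The only one with a spot well above background was miR-126-3p, which is cut from an intron of the endothelial gene Egfl7. It had 5.64 (SE 0.88), 10.7 (SE 1.1), 9.04 (SE 0.56) and 6.76 (SE 0.70) units on the 4 arrays, and the 1 spot was on PNs_NFIA_OE. All 4 of its values were above the negative-control median, and none reached the 99th percentile. A looser measure asked only that the authors' deposited value reach the lowest of a detected miRNA. By that measure miR-126-3p counted as detected on all 4 arrays. Its partner strand miR-126-5p ran from 1.29 to 2.34 units. The striated muscle markers miR-1, miR-133a, miR-133b and miR-206 ran from -3.0 to 2.08 units. The heart miRNAs miR-208a and miR-208b, which lie within the myosin genes Myh6 and Myh7, were below 0 on every array.

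miR-143 and miR-145, smooth-muscle miRNAs made from 1 transcript, differed in their order over the arrays. miR-143 had -2.39, 4.42, -0.57 and 1.03 units, highest on PNs_NFIA_OE, where only the measure from the authors' values counted it as detected. miR-145 had -4.29, -1.58, -1.44 and -2.68 units, below 0 on every array. Across all lineages the 38 members detected on no array had 4 of 2965 spots well above background, and 114 of their 152 array values were below 0. Such values say that the miRNAs were not detectable by these probes, not that they were absent from the cells.

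**Figure D3:**
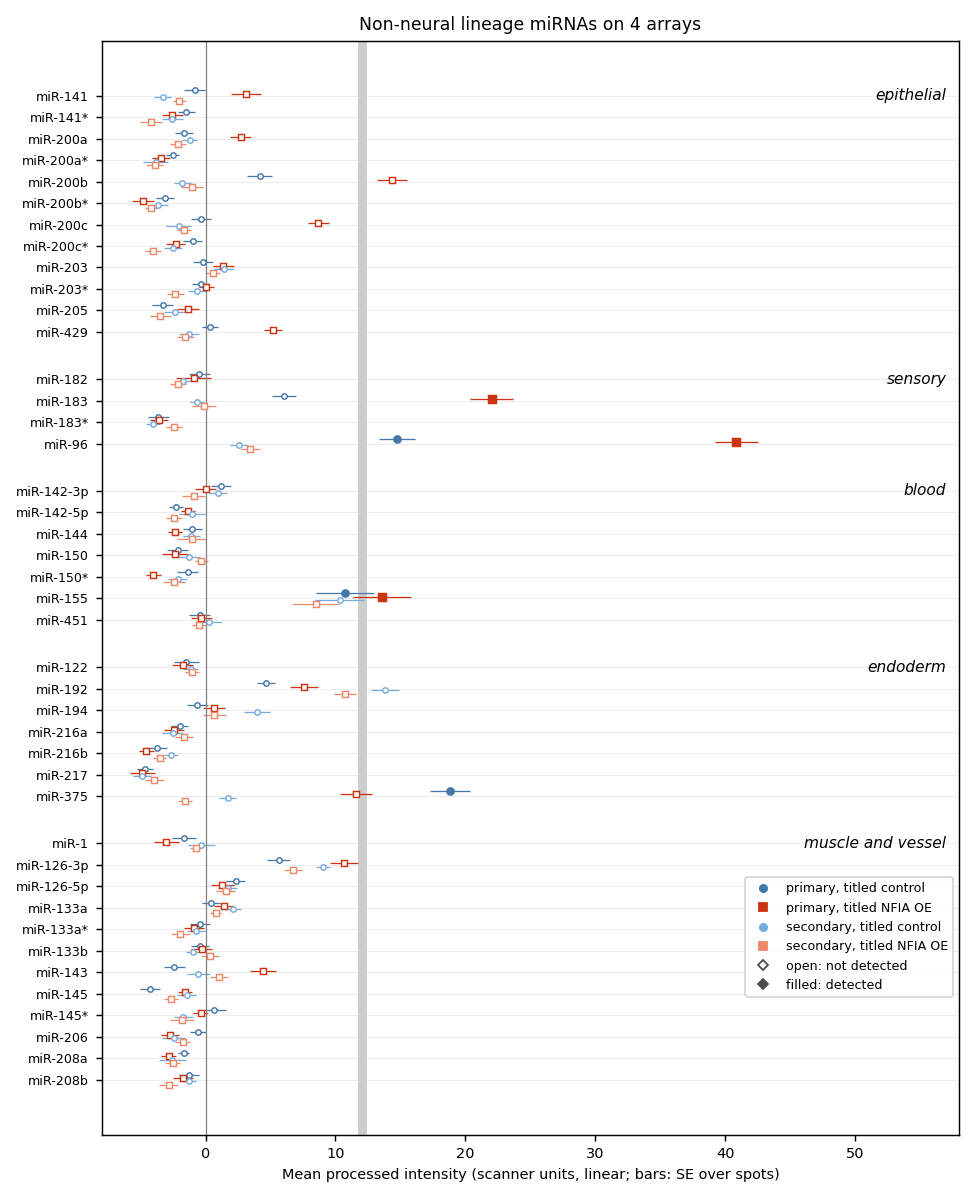
Mean processed intensity (linear scanner units, bars: SE over spots) of all 42 members on the 4 arrays, ordered by lineage. Filled points are detected, and the grey band spans the 99th percentiles of the negative controls, 11.8 to 12.4. For miR-96 the point of PNs_NFIA_OE stands at 40.8, above its other 3 arrays.

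The passage comparison asked whether these miRNAs differ between primary and secondary neurospheres; passage and days of culture cannot be told apart. miR-96 and miR-155 were detected on both primary and neither secondary arrays, as were 17 of all 611 mouse miRNAs (2.78%). For these a fold can only be bounded, with the dim side set to the array's dimmest detected probe wherever the probe's own signal was lower, after division by each array's 75th percentile. On that scale miR-96 was at least 2.90-fold higher on the primary arrays (log2 bound 1.54, n = 2 arrays per passage), at least 2.37-fold in the pair titled control and 3.04-fold in the pair titled NFIA OE. miR-155 was at least 1.98-fold higher, with 2.41-fold and 1.62-fold in the same pairs. A bound of at least 2-fold was reached by 15 of the 17 miRNAs (88.2%), so that miR-96 is not set apart from them. In the other direction, 13 miRNAs were detected on both secondary and neither primary arrays, and 2 of them reached it. The dimmest detected probe, once scaled, was 0.70 log2 lower on the secondary arrays, which leaves room for larger bounds toward the primary ones.

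The bounds depend on the scaling. Without any scaling between arrays the log2 bound was 0.58 for miR-96 and 0.03 for miR-155, and for the pairs titled control no fold could be given (-0.16 and -0.14). In single pairs miR-375 was at least 2.93-fold higher on PNs_CT than on SNs_CT, and miR-183 at least 2.01-fold higher on PNs_NFIA_OE than on SNs_NFIA_OE. Without scaling these log2 bounds of 1.55 and 1.00 became 0.15 and 0.51. In the pair titled control 28.5% of 235 miRNAs were at least 2-fold lower at passage 1 and 8.09% higher, and in the pair titled NFIA OE 20.9% of 239 were lower and 5.86% higher. Of the members detected on an array of these pairs, 3 of 3 and 2 of 3 were at least 2-fold lower. No member was detected on a secondary array, so that this direction was fixed by detection and the counts are not read against those shares.

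The title comparison asked whether overexpression of NFIA goes with other lineage miRNAs. At passage 1 there was no member to compare, since none was detected (0), while 4.98% of 221 miRNAs were at least 2-fold higher and 0.905% lower on SNs_NFIA_OE. At passage 0 miR-96 was 1.56-fold higher on the array titled NFIA OE (log2 difference 0.64) and miR-155 1.42-fold lower (-0.51), both measured on 1 probe, with no replicate and so no test. Both values depend on the scaling. Without scaling the log2 difference was 1.28 for miR-96 (2.44-fold) and turned to 0.14 for miR-155. With normexp background correction that of miR-96 turned to -0.05. The normexp setting adds an offset of 50 units, more than the 19.6 and 47.8 units of this miR-96 probe. Such an offset draws the ratio of dim signals toward 1 before the arrays are scaled. miR-375 was at least 2.28-fold higher on the array titled control (log2 bound 1.19), where 4.41% of the 227 miRNAs detected in that pair were at least 2-fold lower on the array titled NFIA OE. That bound ran from 0.55 without scaling to 1.48 with median centring. For miR-183 no fold could be given at passage 0, because the dimmest detected probe of the control-titled array, once scaled, lay above its signal on the other. Its log2 bound toward PNs_NFIA_OE was 0.61 without scaling, 1.00 with the authors' deposited values and 0.03 when all probes set the percentile. It was 0 with quantile normalization, -0.32 with median centring and -0.30 with normexp and its offset, which give no fold.

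No member (0 of 42) was detected on all 4 arrays, against 25.0% of all mouse miRNAs, so none entered the fit across arrays. That fit was run with limma on the miRNAs detected on every array, with title and passage as terms. At a Benjamini-Hochberg adjusted p under 0.05 limma called 2.61% of them by title and 45.8% by passage. The passage share and its direction depend on the processing. As reported, 70 were called by passage, 20 higher and 50 lower on the secondary arrays. With median centring 0 were called, without scaling 21 (20 higher, 1 lower) and with the authors' deposited values 56 (39 higher, 17 lower). With quantile normalization 51 were called (21 higher, 30 lower) and with normexp 87 (14 higher, 73 lower). When all probes set the percentile, 30 were called (25 higher, 5 lower). With 0 members tested, 0 were called and 0 passed an unadjusted p under 0.05, which says nothing about whether the members differed.

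With wider filters, values under an array's dimmest detected probe were set to that probe's level. After scaling, this floor was itself 0.70 log2 lower on the secondary than on the primary arrays, so that a miRNA at the floor on every array also came out lower at passage 1. The calls of these fits are therefore given as counts and not read as differences of the members. With detection on at least 1 array, limma tested 4 members, which had entered through the primary arrays where they were bright, and called 3 of them lower by passage (miR-96, miR-183 and miR-155), where 42.9% of all 252 miRNAs were called and 35.3% were called lower. With no filter limma tested all 42 members and called 1 by passage, miR-96, where 9.33% of all 611 were called and 7.04% called lower. By title limma called 0 members with either filter, where 1.19% and 0.327% of all miRNAs were called, and 0 of the 4 detected members passed an unadjusted p under 0.05 with the first.

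Pluripotency-linked miRNAs moved with the members that were higher on the primary arrays. The summed intensity of the 22 strands, in multiples of each array's 75th percentile, was 4.99, 4.27, 0.20 and 0.43 on the 4 arrays, and 11 of the 22 were not detected on any array. Between the primary arrays the sum was higher on PNs_CT, as was miR-375 on that scale. miR-96, miR-183 and the miR-200 family were higher on PNs_NFIA_OE on the same scale. The order of the sum depends on the scaling: in unscaled intensity it was 835 units on PNs_CT and 1115 on PNs_NFIA_OE. The part of the pluripotency-linked miRNAs in the values of miR-96, miR-183, miR-375 and the miR-200 family was not tested. SNs_NFIA_OE detected 7 of these 22 and none of the 42 non-neural members (0). With bulk RNA of a sorted fraction, fewer cells of a type and less of a miRNA per cell cannot be told apart.

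A further list of 22 strands was read the same way. They belong to miRNAs linked to blood, epithelium, mesenchyme, cartilage, gut, liver or body position, and 5, 8, 8 and 10 of them were detected. These shares of 22.7%, 36.4%, 36.4% and 45.5% stand beside 30.4%, 36.0%, 34.2% and 33.9% of all mouse miRNAs. Detected on every array were miR-148a, both strands of miR-140, a cartilage miRNA, miR-199a-3p and the star strand of miR-199b. miR-199a-5p and miR-214, of mesenchymal cells, were detected on PNs_NFIA_OE and SNs_NFIA_OE and on no control-titled array. miR-10a and miR-10b, encoded within the Hox clusters, were detected on both secondary arrays alone, and miR-224 on all except PNs_CT. Of all 611 mouse miRNAs, 3 were detected by the same probe on both NFIA OE-titled arrays and on no control-titled one. Likewise 13 were detected by the same probe on both secondary and neither primary arrays. miR-223 and miR-146a of blood, miR-31 of epithelium, miR-486 of red cells and muscle, miR-499 of muscle, and miR-215 and miR-802 of gut and liver were not detected on any array.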

How the data were processed

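Mature miRNAs were measured on 4 one-colour (Cy3) Agilent arrays, 1 per group, all on 1 slide per the file headers. Per the file headers, each deposited file gives the linear intensity of single spots after background subtraction and spatial detrending in Feature Extraction 10.5.1.1; levels were not equalised between arrays. The scanner files also hold flags (other values, 0 or 1) that the deposited software set for spots well above background. The authors' deposited table holds 1 linear intensity per miRNA, and each array's column is its total gene signal over a constant (20.3, 34.1, 33.7 and 31.0), within 0.1% for every value given. It is neither on a log scale nor centred over genes, and the median of the values it gives was 0.907, 0.882, 0.702 and 0.830. The sources used here do not say how the constants were set.

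Control spots and outlier-flagged spots (265 to 300 of 13000 per array) were left out, no spot was saturated (0), and the intensities of the rest were averaged per probe or per miRNA. Detection and the bounds follow the rules given with the results. Tests used limma 3.58.1 in R 4.3.3, with 1 residual degree of freedom per miRNA and a pooled residual SD of 0.29 log2, and the script was tested on simulated data. Nothing says that cultures were separate, so p-values reflect spread among these arrays alone, which may be technical, and having 4 arrays limits precision. Every member is accounted for, those detected singly and the rest by lineage. The members and lists were chosen with earlier results of these data known.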

Additional observations from a re-analysis of the deposited data

How the results depend on the processing

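Counts of detected members depend on the detection measure, and are given for PNs_CT, PNs_NFIA_OE, SNs_CT and SNs_NFIA_OE against the 3, 3, 0 and 0 reported. With any spot well above background they were 3, 5, 1 and 1. With every spot they were 1, 1, 0 and 0. With the scanner software's own detection flag per miRNA they were 3, 5, 2 and 1, which adds miR-200b and miR-375 on PNs_NFIA_OE, miR-192 on SNs_CT and miR-155 on both secondary arrays. With the mean above the 99th percentile of negative controls they were 2, 4, 1 and 0, and with the authors' processed values above the lowest value of a detected miRNA 5, 10, 3 and 3. Of all mouse miRNAs PNs_NFIA_OE also detected the largest share under each of these 5 measures (41.4%, 32.1%, 42.9%, 36.5% and 49.4%). By title no member was tested by limma in 7 of 9 alternatives, and in the other 2, which tested 4 and 42 members, 0 were called. By passage they were 3 of 4 (miR-96, miR-183 and miR-155, lower at passage 1) when detection on 1 array sufficed and 1 of 42 (miR-96) with no filter, where 42.9% and 9.33% of all miRNAs tested were called. In both of these fits the scaled floor was itself 0.70 log2 lower on the secondary arrays, and in the first the members entered through the arrays on which they were bright. In the other 7 alternatives by passage no member was tested, and 0 were called. Single pairs without a test had 1 and 0 members at least 2-fold apart by title at passages 0 and 1, and 3 and 2 by passage in the pairs titled control and NFIA OE. No paired analysis was possible because each group has 1 array and no replicate number of its own. Passage already pairs the arrays in the fit for title. No replicate could be left out for the same reason. Over 6 alternatives the log2 bound by passage ran from 0.58 to 2.41 for miR-96 and from 0.03 to 0.80 for miR-155. The 0.98 reported for miR-155 was thus above all 6. The 1.54 reported for miR-96 was above all except that from the authors' deposited values.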

Other observations

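The star strands of the non-neural miRNAs had 0 spots well above background on every array, with mean values from -4.80 units (miR-200b star strand, PNs_NFIA_OE) to 0.69 units (miR-145 star strand, PNs_CT). On PNs_NFIA_OE, where the 5 guide strands of the miR-200 family had their highest values, the star strands of miR-200a, miR-200b, miR-200c and miR-141 stood at -3.42, -4.80, -2.29 and -2.54 units.

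Which array was highest for a member depended on the scaling. In scanner intensity 15, 12, 9 and 6 of the 42 members were highest on PNs_CT, PNs_NFIA_OE, SNs_CT and SNs_NFIA_OE, and after division by the 75th percentile 7, 13, 17 and 5. Among the 359 mouse miRNAs detected on no array these shares were 25.6%, 18.7%, 38.2% and 17.5% in intensity and 24.5%, 14.2%, 45.7% and 15.6% after scaling. For the 38 members detected on no array, 114 of 152 array values were below 0. Division by a larger percentile raises a negative value, and SNs_CT had the largest percentile, 443 units. Where values are below 0, the scaled counts therefore do not rank levels.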
